A study of Mus musculus with 6 samples.

Results

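The genes described here belong to 9 families that are named for the testis, for sperm or for germ cells, or that hold many genes active there. They are Tex (testis expressed), Spata (spermatogenesis associated), Tdrd (Tudor domain), Odf (outer dense fibre of the sperm tail), Tssk (testis-specific serine kinase), Spaca (sperm acrosome associated), Catsper (sperm calcium channel), Mage (melanoma antigen) and Adam (a disintegrin and metalloproteinase). Members were chosen by symbol alone, as a family stem followed by a digit, or by a letter and a digit for Mage. Adam8, Adam9, Adam10, Adam12, Adam15, Adam17, Adam19 and all Adamts genes were left out. The rule found 61 of the 15643 genes in the count table: 16 Tex, 12 Spata, 8 Adam, 6 Mage, 6 Odf, 5 Tdrd, 4 Spaca, 2 Catsper and 2 Tssk genes. A symbol does not make a gene specific to the testis. The members were split by hand, from general knowledge, into 28 listed as transcribed in many tissues and 33 others. The split was made with earlier results of these data known.

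The cells were mature medullary thymic epithelial cells (mTEChi), the sorted MHC class II-high fraction of the epithelium that displays proteins of other organs to developing T cells. They came from NOD mice, a strain prone to autoimmune diabetes, aged 4.5 weeks. There were 3 Aire-/- libraries (numbers 746, 748 and 749) and 3 Aire+/+ libraries (numbers 745, 750 and 753), prepared by MARS-seq. The method tags each captured transcript end with a unique molecular identifier (UMI), so that UMIs near 3′ ends are counted. Aire encodes the transcriptional regulator that many tissue-restricted genes need in these cells, so the comparison asks how the testis and germ cell families are transcribed without it. The sources used here leave out which stretch of Aire was deleted and do not say whether each library came from a separate animal, so each p-value reflects the spread between libraries, which may be technical.

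Library totals were between 1014581 and 1960802 UMIs for Aire-/- cells and between 2736932 and 2887321 UMIs for Aire+/+ cells. UMIs assigned to Aire itself stood higher under the Aire-/- label, at 4827 ± 333 against 2250 ± 192 CPM (UMIs of a gene relative to the library size corrected by TMM factors, mean ± SD, n = 3 each). A 3′ tag outside the deleted part checks nothing about the genotype, so every direction below rests on the labels. Gapdh had 28 UMIs in the Aire-/- library 746 and 90 UMIs in the Aire+/+ library 753, against 2245 to 4166 UMIs in the other libraries. All 11 markers of mature medullary epithelium were present, among them Epcam at 278 ± 34.7 CPM in Aire-/- and 276 ± 28.0 CPM in Aire+/+ libraries, and 5 of the 11 passed the test as higher in Aire-/- libraries (Cd74, H2-Aa, H2-Ab1, Cd80 and Cd86). Of the markers of other cells, none of 7 thymocyte markers and none of 3 tested B cell markers passed. The fibroblast markers Col3a1 and Dcn and the dendritic cell marker Cd209a passed as higher. Of the tested ciliated cell markers, 7 of 9 passed as lower in Aire-/- libraries. Over all tested genes, 12.1% passed as lower and 8.59% as higher.

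Male germ cells pass through meiosis, then as spermatids build an acrosome, a tail and a compacted nucleus, and each step uses proteins made almost nowhere else. Tudor-domain proteins hold together the germ granules in which piRNAs, small RNAs that silence transposons, are made. Sperm tails and motile cilia are built on the same axoneme, so several genes first described in sperm are also transcribed in ciliated epithelia. The thymic medulla transcribes many such genes at low levels, partly through Aire, and it also holds epithelial cells with features of ciliated and other peripheral cells.

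Stretches upstream of 6 members are shown, 4 of members with large differences between genotypes and 2 of members with many UMIs, because CpG content is compared over all members further on. Each is the 250 bases before the start of the RefSeq transcript in the build GRCm38.p6, written 5′ to 3′ on the gene's strand, with every CpG dinucleotide in capitals. Odf3b (chr15:89379255-89379504 (minus strand)), Spaca3 (chr11:80858113-80858362 (plus strand)), Tex33 (chr15:78395913-78396162 (minus strand)) and Spata19 (chr9:27396557-27396806 (plus strand)) were lower in Aire-/- libraries. Tex264 (chr9:106685953-106686202 (minus strand)) and Maged1 (chrX:94542026-94542275 (minus strand)) did not pass the test. CpG numbered 12 in Odf3b, 5 in Spaca3, 3 in Tex33 and 2 in Spata19, and 12 in Tex264 and 14 in Maged1, so that Odf3b holds as many as Tex264. Spaca9, also lower and with its full stretch not shown, has 15, more than either Tex264 or Maged1.
Odf3b: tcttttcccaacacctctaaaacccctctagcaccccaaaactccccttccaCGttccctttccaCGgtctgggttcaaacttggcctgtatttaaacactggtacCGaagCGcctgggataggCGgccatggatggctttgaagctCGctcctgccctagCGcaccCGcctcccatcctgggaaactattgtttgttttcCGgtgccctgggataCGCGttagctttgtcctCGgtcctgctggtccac
Spaca3: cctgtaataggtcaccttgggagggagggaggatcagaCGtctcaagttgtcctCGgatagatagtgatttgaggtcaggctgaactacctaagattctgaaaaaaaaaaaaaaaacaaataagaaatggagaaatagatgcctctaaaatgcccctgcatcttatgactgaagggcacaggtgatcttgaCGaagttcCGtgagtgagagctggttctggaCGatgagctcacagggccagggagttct
Tex33: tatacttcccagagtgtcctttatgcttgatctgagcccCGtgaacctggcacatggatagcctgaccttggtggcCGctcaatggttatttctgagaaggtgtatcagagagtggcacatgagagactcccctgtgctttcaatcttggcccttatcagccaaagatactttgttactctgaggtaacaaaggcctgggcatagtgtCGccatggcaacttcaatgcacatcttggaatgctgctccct
Spata19: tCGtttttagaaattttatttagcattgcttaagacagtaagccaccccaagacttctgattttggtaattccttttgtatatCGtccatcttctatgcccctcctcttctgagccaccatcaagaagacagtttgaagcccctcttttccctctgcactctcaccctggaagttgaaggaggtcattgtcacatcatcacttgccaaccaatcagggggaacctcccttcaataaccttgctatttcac
Tex264: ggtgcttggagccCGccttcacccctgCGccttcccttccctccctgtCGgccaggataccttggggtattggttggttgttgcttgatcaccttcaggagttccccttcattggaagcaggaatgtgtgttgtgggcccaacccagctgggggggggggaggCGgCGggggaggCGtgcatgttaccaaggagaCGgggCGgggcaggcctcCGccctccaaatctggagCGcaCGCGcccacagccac
Maged1: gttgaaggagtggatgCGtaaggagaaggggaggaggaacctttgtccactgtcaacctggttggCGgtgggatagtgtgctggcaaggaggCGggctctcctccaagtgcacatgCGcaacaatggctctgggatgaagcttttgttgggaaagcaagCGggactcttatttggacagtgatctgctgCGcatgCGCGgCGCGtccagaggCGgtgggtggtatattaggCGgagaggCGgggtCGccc

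Transcripts of 7 members were lower in Aire-/- than in Aire+/+ libraries, and no member was higher. The 7 were Odf3b, Spaca3, Tex33, Spata24, Adam28, Spata19 and Spaca9, which span the sperm tail, the acrosome, the sperm mitochondria and the cell surface. The members with the most UMIs, Tex264, Maged1, Adam11, Tex261, Tdrd7 and Maged2, did not pass the test. A filter on low counts left 37 members to test, of which 7 passed as lower and 30 did not pass (edgeR quasi-likelihood test, Benjamini-Hochberg adjusted p up to 0.05 over 11956 genes). Over all tested genes, 12.1% were lower and 8.59% were higher. All 7 members were at least 2-fold lower, which held for 10% of tested genes. The count of 0 higher members was the same with DESeq2. Of the 37 tested members, 0 were higher even at an unadjusted p under 0.05 in either tool. Without libraries 746 and 753, which have few Gapdh UMIs, 5 members were lower, all but Spata19 and Spaca9, and 9.48% of all tested genes were lower. In RNA from many cells, fewer cells of a type and less RNA per cell cannot be told apart.

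The filter bears on this count. 6 of the 7 lower members, all but Spata24, had no Aire-/- library above the filter's level of 4.26 CPM of the library total and entered the test through their Aire+/+ libraries, as did 877 of the 11956 tested genes. Such a member had to differ in order to be tested, so the count is a description and not a measure of how often the families changed. The median log2 fold change, Aire-/- over Aire+/+, was -0.33 over the 37 tested members and -0.02 over all tested genes. Spaca3, whose fitted value depends on the prior count, lies below these medians also at the bound given for it further on. The median was -0.20 over the 24 tested members listed by hand as transcribed in many tissues, of which 3 were lower (Odf3b, Adam28 and Spata24). It was -0.58 over the other 13, of which 4 were lower. All these medians include genes that entered the test through their Aire+/+ libraries, among them those 4, so they are descriptions as well.

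**Figure D1:**
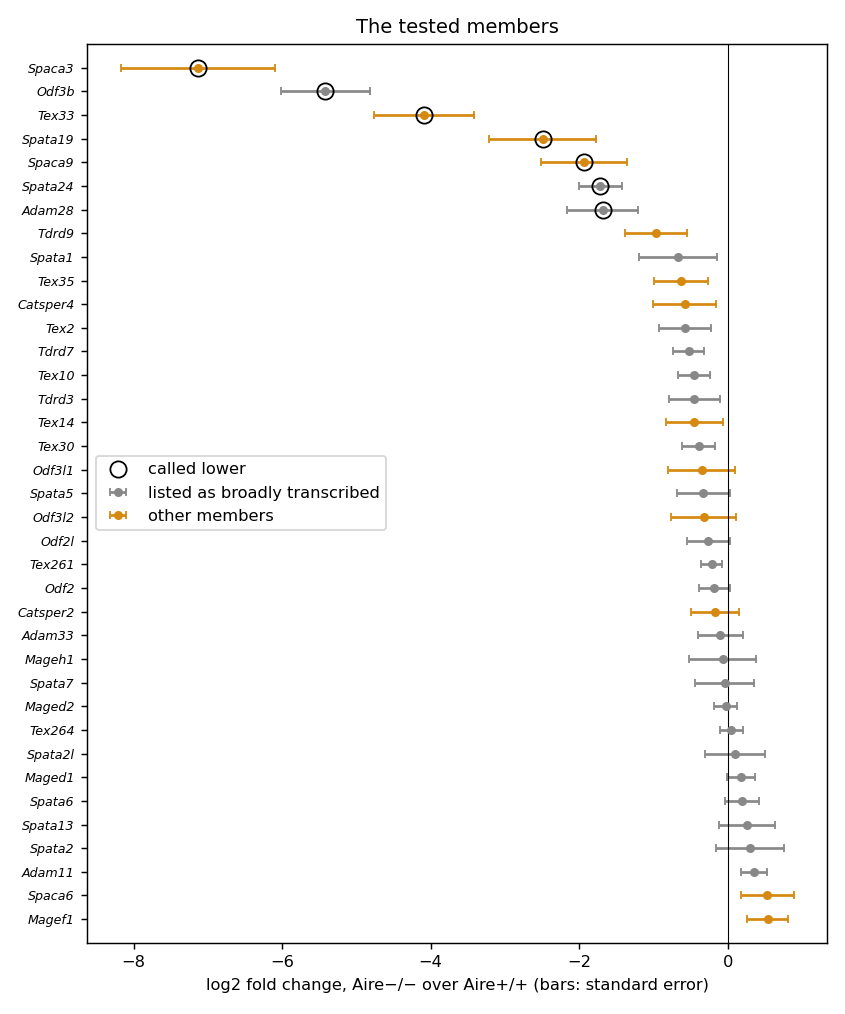
Log2 fold change of Aire-/- over Aire+/+ libraries for the 37 tested members, ordered by size (points, with bars as standard errors, 3 libraries each). Circles mark the 7 that passed the test. Grey points are members listed by hand as transcribed in many tissues and orange points the others. Spaca3 has 0 UMIs in all Aire-/- libraries, so its fitted point at -7.13 is set by the prior count of the fit; the 30 members that did not pass lie between -0.96 and 0.54.

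Among proteins of the sperm tail and of cilia, Odf3b, Spaca9 and Tex33 were lower and the outer dense fibre gene Odf2 and the channel gene Catsper2 did not pass the test. Odf3b, a relative of the outer dense fibre protein Odf3 that is also made in ciliated cells, had 0, 0 and 2 UMIs in Aire-/- libraries, against 78, 49 and 67 UMIs in Aire+/+ libraries. The highest Aire-/- library lay far below the lowest Aire+/+ library. Its level was 0.408 ± 0.706 CPM against 21.4 ± 4.79 CPM (SD, n = 3 each), which gives a log2 fold change of -5.42 ± 0.60 (SE; edgeR adjusted p = 3.55e-05). With 2 UMIs on the Aire-/- side, the pooled level was 47.9 times as high in Aire+/+ libraries, with an exact 95% counting interval of 13.1 to 398. Tex33, a testis protein also named as a protein of ciliary microtubules, had 0, 0 and 2 UMIs in Aire-/- and 22, 28 and 27 UMIs in Aire+/+ libraries. The groups did not overlap, and the difference passed the test with a log2 fold change of -4.09 ± 0.67 (SE; edgeR adjusted p = 0.000722). The pooled level was 19.0 times as high in Aire+/+ libraries (exact 95% counting interval 5.08 to 160). Odf3b stayed past the threshold under all 13 alternatives tried and Tex33 under all 12 in which it was tested. Spaca9, a protein inside the microtubules of sperm tails and of cilia, had 3, 0 and 6 UMIs in Aire-/- and 24, 26 and 22 UMIs in Aire+/+ libraries. Its 3 Aire+/+ libraries were close to each other, at 7.95 ± 0.606 CPM, and the Aire-/- libraries stood at 2.25 ± 1.97 CPM. The log2 fold change was -1.93 ± 0.58 (SE; edgeR adjusted p = 0.0319). Spaca9 no longer passed without Aire-/- library 748 (adjusted p = 0.0923), nor without any 1 of the Aire+/+ libraries 745, 750 or 753 (adjusted p = 0.0692 to 0.0829).

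The other Odf and Catsper genes did not pass the test. Odf2, which builds both outer dense fibres and centriole appendages, had 19, 55 and 37 UMIs in Aire-/- libraries and 87, 93 and 71 UMIs in Aire+/+ libraries, which is 23.9 ± 5.16 against 27.7 ± 3.52 CPM. Once scaled for depth the groups overlapped, and the log2 fold change was -0.18 ± 0.21 (SE; edgeR adjusted p = 0.614). Odf2l, a protein of centrioles and basal bodies, and the Odf3 relatives Odf3l1 and Odf3l2 had log2 fold changes of -0.26, -0.35 and -0.32 with standard errors of 0.29 to 0.45. Catsper2, a pore subunit of the calcium channel of the sperm tail, had 9, 19 and 15 UMIs in Aire-/- and 43, 23 and 32 UMIs in Aire+/+ libraries, or 9.54 ± 0.587 against 10.8 ± 3.25 CPM. The groups overlapped and the edgeR adjusted p was 0.765. Catsper4, another pore subunit, stood at 3.50 ± 1.71 against 5.62 ± 1.26 CPM and did not pass either (edgeR adjusted p = 0.391). Odf1, a main protein of the outer dense fibres, was too low to test, with 0, 1 and 0 UMIs in Aire-/- and 10, 2 and 4 UMIs in Aire+/+ libraries. Spata6, which is needed to join the sperm head to its tail, stood at 27.3 ± 8.62 against 24.7 ± 2.95 CPM with overlapping groups (edgeR adjusted p = 0.615).

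Most tested markers of ciliated cells were lower, as were Odf3b, Tex33 and Spaca9. The tested members Odf2, Odf2l, Odf3l1, Odf3l2, Catsper2 and Catsper4 did not pass. All 12 listed markers were in the table, 9 were tested and 7 of them were lower, against 12.1% of all tested genes. Of these, Tekt1, Ccdc113, Mcidas and Deup1 had no Aire-/- library above the filter and entered the test through their Aire+/+ libraries. Tekt2 (log2 fold change -0.32, edgeR adjusted p = 0.417) and Dnah9 (-0.91, edgeR adjusted p = 0.0622) did not pass. Dnah5, Ccdc39, Hydin and Mcidas had 0 UMIs in every Aire-/- library. The summed level of the 12 ran from 110.8 to 160.2 CPM in Aire-/- libraries and from 310.2 to 403.7 CPM in Aire+/+ libraries. Foxj1, the master regulator of motile cilia, had 23, 43 and 68 UMIs in Aire-/- and 325, 253 and 204 UMIs in Aire+/+ libraries, and Tekt1, a protein of ciliary and flagellar microtubules, had 1, 2 and 0 against 85, 120 and 100 UMIs. The part of ciliated cells in the levels of Odf3b, Tex33 and Spaca9 was not tested.

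Of the tested genes of the acrosome and sperm surface, Spaca3 was lower and Spaca6 did not pass, and the difference between them was not tested. Adam28, from a family with many sperm surface proteins, was lower too. Spaca3, a lysozyme-like protein of the acrosome, had 0 UMIs in each of the 3 Aire-/- libraries, against 31, 17 and 22 UMIs in Aire+/+ libraries, or 7.72 ± 2.29 CPM. Taking 3 UMIs over the Aire-/- group as the floor, it was at least 11.5-fold lower (edgeR adjusted p = 0.000571), and it passed under all 12 alternatives in which it was tested. Spaca6, a sperm membrane protein that sperm need to fuse with the egg, had 10, 15 and 14 UMIs in Aire-/- and 22, 22 and 11 UMIs in Aire+/+ libraries. After scaling, at 8.96 ± 1.15 against 6.06 ± 2.05 CPM, all 3 Aire-/- libraries lay above the Aire+/+ libraries, but the difference did not pass the test (log2 fold change 0.53 ± 0.36 SE, edgeR adjusted p = 0.346). Adam28, a metalloproteinase made mainly by lymphocytes and epithelia, had 4, 4 and 2 UMIs in Aire-/- and 30, 19 and 18 UMIs in Aire+/+ libraries. The groups did not overlap, at 2.49 ± 1.47 against 7.39 ± 2.13 CPM, and the log2 fold change was -1.69 ± 0.48 (SE; edgeR adjusted p = 0.0236). Adam28 no longer passed with DESeq2 (adjusted p = 0.0697), nor without library 748, 749 or 745 (edgeR adjusted p = 0.0860, 0.0750 and 0.107). The last 300 bases of its transcripts also hold stretches that match at least 144 other genes, so its UMIs may be shared. The same limit holds for Spata1, Spata7, Spata2l and Catsper4, with matches to at least 163, 151, 22 and 19 other genes. Tex30 matches Gm29247 over 172 bases.

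Adam11 and Adam23, which lack protease activity and bind secreted Lgi proteins in the brain, were not among the lower members. Adam11 had 104, 138 and 182 UMIs in Aire-/- and 202, 245 and 239 UMIs in Aire+/+ libraries, or 97.4 ± 20.2 against 75.8 ± 8.29 CPM, and did not pass the test (edgeR adjusted p = 0.186). Adam23, which was too low to test, had 8, 8 and 11 UMIs in Aire-/- and 6, 10 and 6 UMIs in Aire+/+ libraries. Its scaled levels did not overlap, at 6.41 ± 1.97 against 2.43 ± 0.758 CPM, with the Aire-/- libraries on top. With the filter at a minimum count of 3 Adam23 was tested, and its log2 fold change of 1.33 did not pass (edgeR adjusted p = 0.0555). Among the Adam genes of the male tract, the epididymal gene Adam7 had 0 UMIs in all Aire-/- libraries and 7, 7 and 8 UMIs in Aire+/+ libraries. The testis gene Adam5 also had 0 UMIs in all Aire-/- libraries, against 6, 1 and 1 UMIs in Aire+/+ libraries. Adam1a, a subunit of the sperm protein fertilin, had 2, 3 and 2 against 7, 2 and 4 UMIs, and its 3′ end shares its sequence with the overlapping gene model Gm42878. Spaca7, another acrosomal protein, had 0 UMIs in all Aire-/- libraries and 7, 8 and 12 UMIs in Aire+/+ libraries. Tex101, a surface glycoprotein of germ cells that sperm need to migrate through the oviduct, had 0, 1 and 0 UMIs in Aire-/- against 11, 7 and 9 UMIs in Aire+/+ libraries. These low genes were named after their values were seen, apart from Adam23, which the rule for named genes chose.

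Among the Spata genes, Spata24 and Spata19 were lower and the 7 other tested genes did not pass. Spata24, a protein of spermatids whose gene is also transcribed elsewhere, had 7, 20 and 11 UMIs in Aire-/- and 105, 65 and 82 UMIs in Aire+/+ libraries. It was the only one of the 7 lower members with an Aire-/- library above the filter. Its level was 8.22 ± 2.21 against 27.8 ± 6.49 CPM, a log2 fold change of -1.71 ± 0.29 (SE; edgeR adjusted p = 0.000826), and it stayed past the threshold under all 13 alternatives tried. Spata19, a protein of the mitochondria that wrap the sperm midpiece, had 0, 0 and 5 UMIs in Aire-/- and 14, 21 and 24 UMIs in Aire+/+ libraries. The Aire-/- library 749 held all 5 of its UMIs in that genotype and lay below each Aire+/+ library. The log2 fold change was -2.49 ± 0.72 (SE; edgeR adjusted p = 0.0265), and the call was lost without library 748, 750 or 753 (adjusted p = 0.113, 0.0663 and 0.0861). Spata33, which anchors the phosphatase calcineurin to sperm mitochondria, was just too low to test, with 0, 0 and 2 UMIs in Aire-/- and 27, 12 and 21 UMIs in Aire+/+ libraries. Its pooled level was 14.8 times as high in Aire+/+ libraries (exact 95% counting interval 3.92 to 125). Spata31d1b, another spermatogenesis-associated gene, had 0, 2 and 4 UMIs in Aire-/- against 8, 11 and 11 UMIs in Aire+/+ libraries and was not tested. Several tested Spata genes that serve functions outside the testis did not pass. Spata2 (an adaptor of ubiquitin signalling), Spata5 (a ribosome assembly ATPase) and Spata7 (a protein of photoreceptor cilia) had log2 fold changes between -0.33 and 0.30 with standard errors of 0.36 to 0.46.

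**Figure D2:**
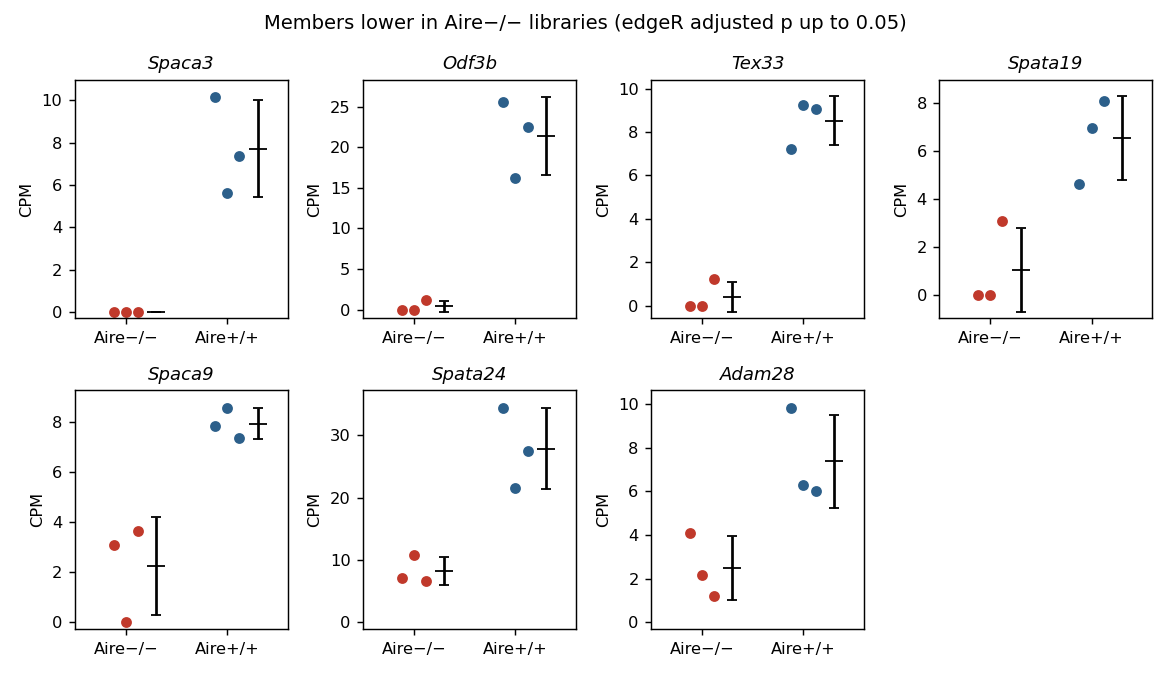
CPM (TMM-scaled) of the 7 members that were lower in Aire-/- libraries, 1 panel per gene with its own axis; points are the 3 Aire-/- (red) and 3 Aire+/+ (blue) libraries, and bars are means ± SD. In every panel the 3 Aire-/- points lie below the 3 Aire+/+ points; Spaca3 stands at 0 in all 3 Aire-/- libraries, and Spata24 keeps 8.22 ± 2.21 CPM.

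No Tdrd gene passed the test, and 2 of the 5 were not tested. Tdrd7, which is found in germ granules and in the lens, had 35, 61 and 92 UMIs in Aire-/- and 199, 153 and 195 UMIs in Aire+/+ libraries, or 41.7 ± 12.7 against 60.4 ± 8.55 CPM. The groups overlapped, and the log2 fold change of -0.53 ± 0.21 (SE) did not pass (edgeR adjusted p = 0.0990). Tdrd7 did pass without library 749 (log2 fold change -0.84, adjusted p = 0.00627) and with scaling by library totals alone (-0.73, adjusted p = 0.0199). Tdrd9, an ATPase of the piRNA pathway, had 7, 5 and 6 UMIs against 28, 18 and 27 UMIs, and its scaled levels of 4.51 ± 2.37 and 8.06 ± 1.84 CPM overlapped (edgeR adjusted p = 0.132). Tdrd12, which is needed to make secondary piRNAs, had 0, 0 and 1 UMIs in Aire-/- and 14, 12 and 18 UMIs in Aire+/+ libraries. It was not tested, and its pooled level was 21.7 times as high in Aire+/+ libraries (exact 95% counting interval 3.70 to 877). Tdrd5, another germ granule protein of that pathway, was also untested, with 1, 1 and 0 UMIs in Aire-/- and 5, 8 and 2 UMIs in Aire+/+ libraries, which overlapped once scaled. Piwil4, a PIWI protein of the comparison list and no member, stood at 26.5 ± 8.19 against 16.3 ± 3.87 CPM and did not pass (edgeR adjusted p = 0.0641). Tdrd3, a reader of methylated arginine that works with a topoisomerase in all tissues, stood at 11.5 ± 6.05 against 14.6 ± 2.69 CPM (edgeR adjusted p = 0.410). Tex19.1 and Tex19.2, which hold transposons in check in the mouse germ line, had 0 UMIs in all Aire-/- libraries, against 7, 2 and 1 UMIs for Tex19.1 and 7, 4 and 5 UMIs for Tex19.2 in Aire+/+ libraries. A stretch of 116 bases in the searched 3′ end of Tex19.1 is 94.0% identical to Tex19.2. Its place within Tex19.2 was not examined, and UMIs of the pair may be split.

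Genes of meiosis and of late germ cell signalling were mostly near the detection limit. Tex11, an X-linked factor of meiotic crossing over, had 4, 6 and 7 UMIs in Aire-/- and 7, 8 and 15 UMIs in Aire+/+ libraries, or 3.87 ± 0.564 against 3.32 ± 1.49 CPM, and the groups overlapped. Tex14, which keeps the bridges between germ cells open, stood at 4.25 ± 1.15 against 6.07 ± 1.33 CPM and did not pass (edgeR adjusted p = 0.466). Tssk6, a kinase that spermatids need to reshape their chromatin, had 0, 2 and 1 UMIs in Aire-/- against 6, 6 and 10 UMIs in Aire+/+ libraries, without overlap. Tssk4, a related kinase, had 0, 2 and 2 against 10, 3 and 6 UMIs and overlapped once scaled. Neither kinase was tested.

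Among the Mage genes, the members measured best did not pass the test. Maged1, an adaptor in neurotrophin receptor signalling, had 157, 274 and 148 UMIs in Aire-/- and 325, 394 and 335 UMIs in Aire+/+ libraries, or 133 ± 37.5 against 116 ± 12.3 CPM (edgeR adjusted p = 0.566). Maged2, which is needed for salt transport in the kidney, stood at 44.2 ± 4.28 against 44.7 ± 2.03 CPM (log2 fold change -0.03 ± 0.16 SE, edgeR adjusted p = 0.930). Magef1, a partner of ubiquitin ligases that the annotation calls a transcribed processed pseudogene, stood at 19.0 ± 5.36 against 12.6 ± 1.90 CPM and overlapped. Magee1, which binds dystrobrevin, was untested at 7, 7 and 4 against 8, 16 and 9 UMIs. Magel2, an imprinted gene of the region homologous to the human Prader-Willi locus, had 0 UMIs in all Aire-/- libraries and 8, 11 and 6 UMIs in Aire+/+ libraries. It was the only one of the 28 members listed as transcribed in many tissues that had 0 UMIs in all Aire-/- libraries.

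The Tex genes ranged from the most abundant members to some of the rarest. Tex264, a receptor that feeds endoplasmic reticulum to autophagy, had 159, 212 and 196 UMIs in Aire-/- and 383, 403 and 359 UMIs in Aire+/+ libraries. At 132 ± 26.9 against 126 ± 6.35 CPM it did not pass the test (log2 fold change 0.05 ± 0.15 SE, edgeR adjusted p = 0.858). Tex261, whose yeast relative sorts cargo at the endoplasmic reticulum, stood at 61.6 ± 3.59 against 71.8 ± 2.81 CPM. Its groups did not overlap, but the log2 fold change of -0.22 ± 0.14 (SE) did not pass (edgeR adjusted p = 0.322). Tex10, of a ribosome assembly complex, Tex30 and Tex2, a lipid transfer protein, had log2 fold changes of -0.45, -0.39 and -0.57 and did not pass. The groups of Tex10 and Tex30 did not overlap, and Tex10 passed with scaling by library totals alone (-0.65, adjusted p = 0.0473). Tex21, Tex29 and Tex37, known mainly from the testis, had 0 UMIs in all Aire-/- libraries and 21 to 24 UMIs each over the Aire+/+ libraries. Tex35, another testis gene, kept 4, 9 and 12 UMIs in Aire-/- against 23, 23 and 32 UMIs in Aire+/+ libraries. Its scaled Aire-/- levels lay below the Aire+/+ levels without overlap, but the log2 fold change of -0.63 ± 0.36 (SE) did not pass (edgeR adjusted p = 0.261).

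Detection differed between genotypes in many of the 24 members below the filter, while others, such as Tex11, Magee1 and Adam1a, had UMIs in every library. 11 of the 61 members had 0 UMIs in all Aire-/- libraries, and 10 of these were among the 33 members not listed as transcribed in many tissues. They were Adam5, Adam7, Magel2, Spaca3, Spaca7, Spata21, Tex19.1, Tex19.2, Tex21, Tex29 and Tex37, of which Spaca3 alone was tested. Over all genes of the table, 5.48% had 0 UMIs in all Aire-/- libraries. Where no UMI was seen, a level of up to 3 UMIs remains possible, or 1.61 to 3.08 CPM in an Aire-/- library and 0.984 to 1.01 CPM in an Aire+/+ library. All 3 Aire-/- libraries lay below all 3 Aire+/+ libraries in 27 of the 61 members, against 24.5% of all genes, and above them in 2, Adam23 and Spaca6, against 13.2% of all genes. With the filter set to a minimum count of 3 in place of 10, 55 members were tested and 17 were lower, against 14.2% of all genes then tested. The added calls were Adam7, Magel2, Spaca7, Spata33, Tdrd12, Tex101, Tex19.2, Tex21, Tex29 and Tex37, and with no filter Spata21 as well. Those added at a minimum count of 3 had few or no UMIs in Aire-/- libraries and entered through their Aire+/+ libraries. The count of 17 is therefore a description too.

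**Figure D3:**
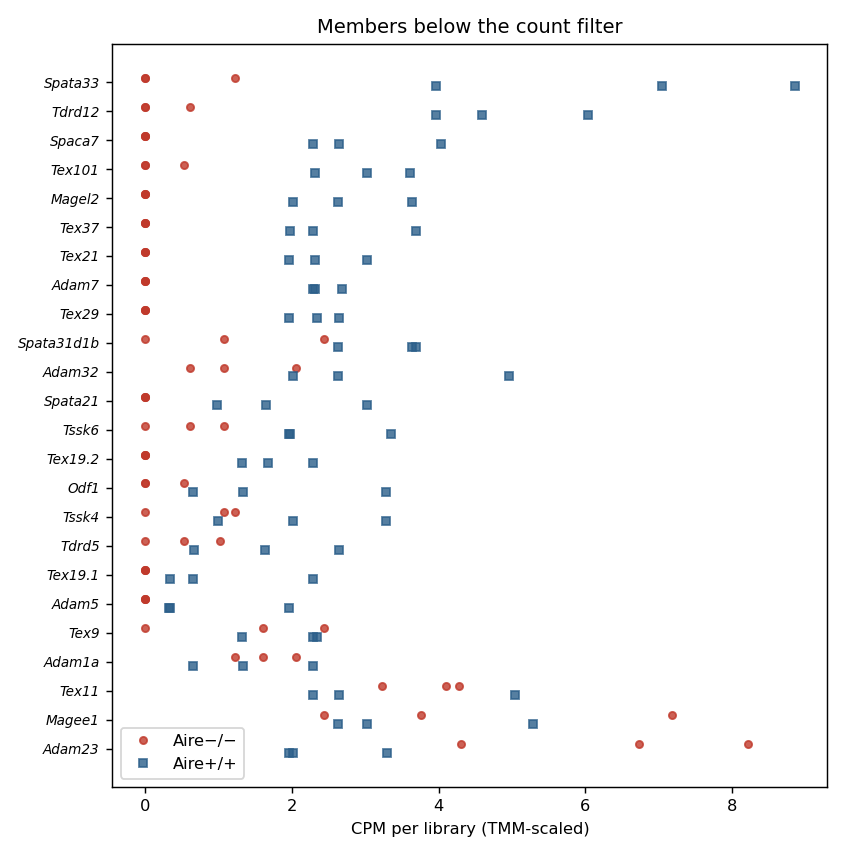
CPM (TMM-scaled) of the 24 members below the count filter, 1 row per gene; circles are the 3 Aire-/- libraries and squares the 3 Aire+/+ libraries. 10 members have all 3 Aire-/- circles at 0, and Adam23, in the bottom row, has its Aire-/- circles above its Aire+/+ squares.

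The authors' deposited table selects 7 members, all lower in Aire-/- libraries, against 7.14% of all genes selected in that direction and 2.28% in the other, where no member was selected. They are Odf3b, Spaca3, Tex33, Spata24, Spata19, Spata33 and Tdrd12. The selection thus holds 5 of the 7 members that passed here, without Adam28 and Spaca9, whose adjusted p-values in the authors' deposited table are 0.0847 and 0.0504. The adjusted p alone does not set that selection. Spaca7, Magel2, Tex37, Adam7, Tex21 and Tex29 have adjusted p-values from 0.0200 to 0.0494 there and were not selected, while Spata19 was selected at 0.0361. Spata33 and Tdrd12, which the filter kept from the test here, have adjusted p-values of 0.0105 and 0.0159 in the authors' deposited table.

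Every member had at least 1 UMI in every Aire+/+ library, while 39, 44 and 47 of the 61 members had at least 1 UMI in Aire-/- libraries 746, 748 and 749. The table itself lists no gene below 6 UMIs in every library. With each library thinned to 1014581 UMIs, the mean number of members detected over 20 draws was 39.0, 41.2 and 44.2 for Aire-/- cells and 60.2, 58.4 and 58.0 for Aire+/+ cells. The numbers thus still differed at equal library totals. A low gene can be listed through its Aire+/+ libraries alone. Of the whole table, 857 genes lacked UMIs throughout the Aire-/- group and 2 genes throughout the Aire+/+ group. Thinning leaves the choice of listed genes as it was, and the part of that choice in the difference was not tested. Thinning does not match composition: the summed markers of medullary epithelium took 70365 ± 4634 CPM in Aire-/- against 41469 ± 3634 CPM in Aire+/+ libraries. Among the 33 members not listed as transcribed in many tissues, 14, 18 and 20 were detected in the Aire-/- libraries and all 33 in each Aire+/+ library.

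The summed level of the 33 members not listed as transcribed in many tissues was 80.9 ± 12.3 CPM in Aire-/- and 154 ± 13.4 CPM in Aire+/+ libraries (SD, n = 3 each), and the ranges of 66.7 to 88.6 CPM and 138.8 to 162.8 CPM did not overlap. The 28 members listed as transcribed in many tissues summed to 708.9 ± 59.2 against 761.3 ± 6.40 CPM and overlapped with TMM scaling. The Aire-/- library 746, at 777.2 CPM, lay above all Aire+/+ libraries. With scaling by library totals alone the sums of the 28 members did not overlap, at 601.9 to 746.1 CPM in Aire-/- and 791.0 to 849.9 CPM in Aire+/+ libraries. These members made up most of the total of 789.8 ± 65.1 against 915.5 ± 19.7 CPM over all 61 members. The difference of that total, Aire-/- minus Aire+/+, was -125.7 CPM with TMM scaling and -240.9 CPM with library totals. Of the 3 fibroblast markers in the table, Dcn and Col3a1 were highest in the same library 746, at 294 and 190 UMIs, and Col1a1 was not, at 5 UMIs there against 10 UMIs in library 748. The part of that library's composition in the broad sum was not tested.

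**Figure D4:**
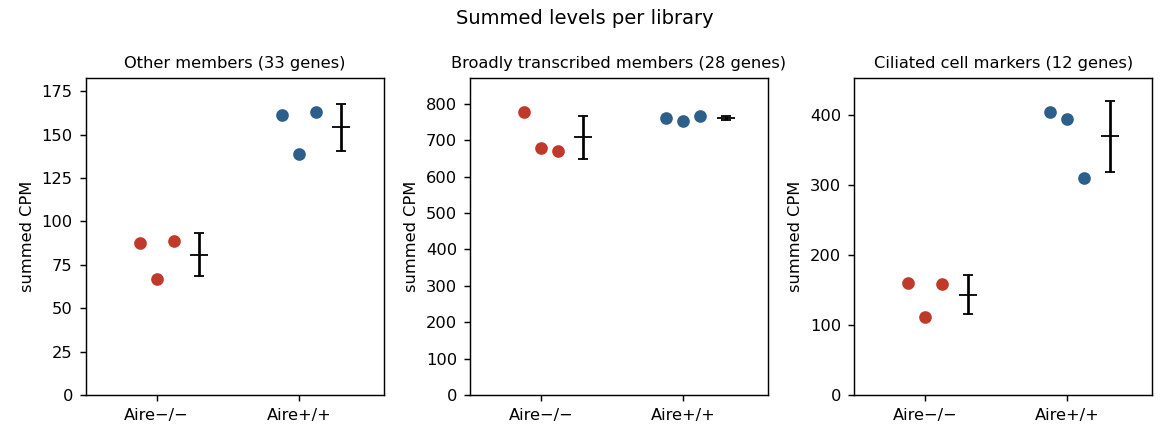
Summed CPM (TMM-scaled) per library of the 33 members not listed as transcribed in many tissues (left), the 28 members that are (middle) and 12 ciliated cell markers (right); points are the 3 Aire-/- (red) and 3 Aire+/+ (blue) libraries and bars are means ± SD. The left and right panels show no overlap between genotypes, at 80.9 against 154 CPM and 143 against 369 CPM, while the middle panel overlaps on this scale and not with library totals.

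Germ cell genes outside these families changed in both directions. A hand-made list of 91 genes in 4 groups, chosen with earlier results known, had 57 genes in the table and 28 tested, of which 11 were lower, 5 higher and 12 not called, against 12.1% of all tested genes lower and 8.59% higher. Of the 11 lower genes, 10 had no Aire-/- library above the filter and entered the test through their Aire+/+ libraries, so the counts of lower genes in these groups are descriptions too. The spermatid and sperm proteins had 4 of 9 lower and 0 higher. Prm1, a protamine that packs sperm DNA, had 0, 6 and 5 UMIs in Aire-/- against 90, 80 and 109 UMIs in Aire+/+ libraries (log2 fold change -3.63 ± 0.40 SE, edgeR adjusted p = 3.36e-05). Cst8, a cystatin of testis and epididymis, had 0 UMIs in all Aire-/- libraries and 38, 32 and 26 UMIs in Aire+/+ libraries, so that it was lower by at least 15.8-fold against a floor of 3 UMIs (edgeR adjusted p = 0.000153). Oaz3, the antizyme of spermatids, had 1, 0 and 0 against 15, 21 and 26 UMIs (edgeR adjusted p = 0.00110). Prm2, the partner of Prm1, did not pass (edgeR adjusted p = 0.511). The group's sum was 70.2 ± 5.91 against 138 ± 10.2 CPM.

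Germ cell identity and piRNA genes had 2 of 7 lower and 1 higher. Sohlh1, a transcription factor of early germ cells, had 0, 0 and 2 UMIs in Aire-/- against 63, 67 and 53 UMIs in Aire+/+ libraries (log2 fold change -5.33 ± 0.57 SE, edgeR adjusted p = 2.69e-05). Dppa3, which guards methylation in the early embryo, was lower at 1, 4 and 4 against 46, 25 and 32 UMIs (edgeR adjusted p = 0.00151). Kit, the receptor for stem cell factor that is found on many blood and pigment cells too, was higher at 54.7 ± 9.82 against 32.6 ± 6.72 CPM (edgeR adjusted p = 0.0180), and the call was lost without library 748, 745 or 753 (adjusted p = 0.0923, 0.0852 and 0.0819) and with library totals alone (0.0807). Ddx4, Piwil1, Asz1 and Gtsf1, partners of the Tudor-domain proteins in the germ granule, had 0 UMIs in all Aire-/- libraries and were not tested.

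Meiosis genes had 0 of 4 tested genes lower and 1 higher. Stra8, which starts meiosis, was higher at 63, 112 and 87 UMIs in Aire-/- and 89, 85 and 94 UMIs in Aire+/+ libraries, which is 59.4 ± 5.80 against 29.6 ± 1.77 CPM once scaled (log2 fold change 0.99 ± 0.16 SE, edgeR adjusted p = 0.000625). Spo11, which cuts DNA to start recombination, stood at 14.4 ± 6.36 against 7.51 ± 2.97 CPM and did not pass (edgeR adjusted p = 0.136). Stag3, a meiotic cohesin, varied between Aire-/- libraries, with 3, 18 and 1 UMIs against 21, 38 and 18 UMIs, and passed as lower only without library 748 (log2 fold change -2.42, adjusted p = 0.0385). Oocyte genes had 5 of 8 lower and 3 higher. Khdc3, of the egg's subcortical complex, had 3, 4 and 0 against 173, 133 and 165 UMIs (log2 fold change -5.00 ± 0.41 SE, edgeR adjusted p = 3.34e-06). Zp3, a zona pellucida protein, had 2, 1 and 0 against 50, 69 and 90 UMIs (edgeR adjusted p = 5.26e-05). Zar1, a keeper of maternal RNA, was higher at 166 ± 12.6 against 64.2 ± 13.7 CPM (log2 fold change 1.37 ± 0.16 SE, edgeR adjusted p = 6.30e-05). Zp2 and H1f8, the oocyte linker histone, were the other two higher genes.

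The nearest gene of the count table on either side of each member was taken from GENCODE vM21, which uses the same build as the files, and the neighbours' calls are set against 12.1% of all tested genes lower and 8.59% higher. Next to the 7 lower members, 12 of 14 neighbours were tested, of which 2 were lower and 1 higher, near those shares. Ak8, an adenylate kinase of cilia and flagella that lies 437 bases from Spaca9 on chromosome 2, was lower with 5, 1 and 2 UMIs in Aire-/- against 36, 33 and 41 UMIs in Aire+/+ libraries (log2 fold change -2.69, edgeR adjusted p = 0.00217). Adamdec1, a metalloproteinase gene between Adam28 and Adam7 on chromosome 14, was lower (log2 fold change -1.25, edgeR adjusted p = 0.0495). Tst, a sulfurtransferase gene 3644 bases from Tex33, was higher by 1.05 (edgeR adjusted p = 0.0109). Next to the members that did not pass, 5 of 38 tested neighbours were lower and 4 higher, also near those shares, and next to untested members 9 of 35 were lower and 0 higher. Among these, both neighbours of Tex101, Lypd3 and Cd177, were lower (log2 fold changes -1.43 and -3.30, edgeR adjusted p = 0.00125 and 0.00491). They belong with Tex101 to the Ly6 and uPAR-like family, and they were named after their values were seen, like the other neighbours.

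RefSeq start regions were found for 49 of the 61 members. For each gene a single start was used, and many of the 49 were not matched to the outermost RefSeq start of the gene. In the 250 bases upstream of the start, the median number of CpG was 5 in the 5 lower members with a region, 14 in the 25 that did not pass, 6 in the 19 untested and 2 in the 9 with 0 UMIs in all Aire-/- libraries. The same medians were 5 in all tested genes that were lower (1104 genes), 16 in tested genes that did not pass (7579 genes) and 6 over all 27025 regions. The members thus lie near the values of other genes with the same call, and single members depart from the medians: the untested Spata33, with 2 UMIs in Aire-/- and 60 UMIs in Aire+/+ libraries, has 36 CpG, and Tdrd7, which did not pass, has 3.

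**Figure D5:**
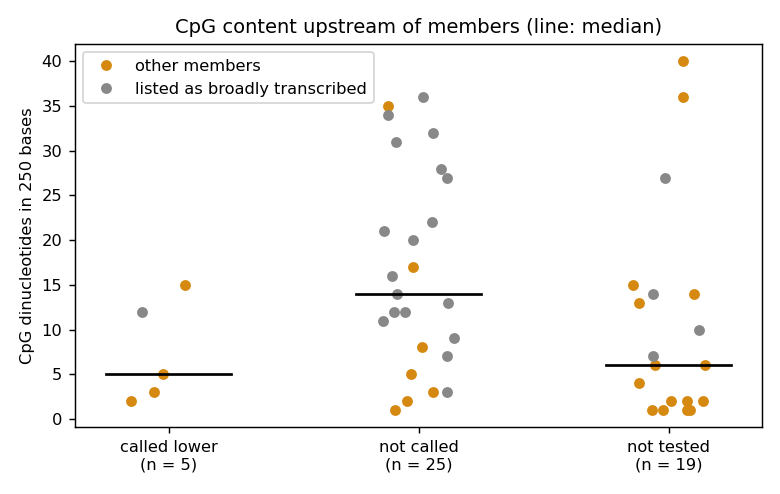
Number of CpG dinucleotides in the 250 bases upstream of the RefSeq start of 49 members, by result of the test (5 lower, 25 that did not pass, 19 untested). Grey points are members listed by hand as transcribed in many tissues, orange points the others, and lines are medians, at 5, 14 and 6. The groups overlap, and counts run from 1 to 40.

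The same regions were searched on both strands for GTTGCCA, a core site of RFX factors, which drive cilium and spermatid genes, for CACGTG and for TGACGTCA, the cyclic AMP response element. CACGTG was present in 2 of 49 members and 6.04% of all regions, and TGACGTCA in 0 of 49 members and 1.61% of all regions. GTTGCCA was present in 4 of 49 members (8.16%) and 3.70% of all regions. These 4 follow with the match in capitals and 10 bases on either side, on the gene's strand, where TGGCAAC is the same motif on the other strand. Spaca9 (chr2:28699739-28699765 (minus strand)) and Tex33 (chr15:78395933-78395959 (minus strand)) were lower in Aire-/- libraries, whereas Odf3l1 (chr9:56853921-56853947 (minus strand)) and Spaca6 (chr17:17830911-17830937 (plus strand)) did not pass the test. Rfx2, an RFX factor of spermatids and ciliated cells, stood at 7.14 ± 3.86 CPM in Aire-/- and 7.29 ± 1.13 CPM in Aire+/+ libraries (edgeR adjusted p = 0.855). The regions of Odf3l1 and Spaca6 lie inside the genes as GENCODE places them (chr9:56848659-56864679 and chr17:17827158-17843009), so they precede internal starts. A match of letters is a description and not a bound site.
Spaca9: atgtgaccggGTTGCCAtagcacctgt
Tex33: agtgtcgccaTGGCAACttcaatgcac
Odf3l1: aaaaaaaagaGTTGCCAgtagatgtgg
Spaca6: aggtgaccccTGGCAACcttcctctag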

How the data were processed

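The authors deposited 1 table of MARS-seq UMI counts per gene symbol, raw counts per the file headers, with their own DESeq2 log2 fold changes (Aire+/+ over Aire-/-), p-values and a yes or no selection, also per the file headers. Tools listed by the submitters' processing notes, without roles, are STAR 2.4.2a, HTSeq, DESeq2, cutadapt and bcl2fastq, with the build mm10. Strand setting, annotation and UMI handling: not given in the sources used here.

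Genotypes were compared over all genes by the quasi-likelihood test of edgeR 4.0.16 under R 4.3.3, after TMM scaling and filterByExpr at min.count 10, with p-values adjusted by Benjamini-Hochberg. Levels are TMM-scaled CPM. Standard errors are the size of the log2 fold change over the root of F. Counting intervals are exact (Clopper-Pearson, 95%), and intervals and floors cover counting error only. The test was checked on simulated data. Library numbers differ between genotypes and pair none. Alternatives were DESeq2 1.42.0, other scalings and filters, left-out libraries and thinning.

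The members, gene lists and tests were chosen with earlier results of these data known. Named members were the lower ones, the 6 untested and 6 uncalled with the most UMIs or highest CPM, the highest of each family and up to 3 tested genes of each germ cell list with the smallest p; others were named after their values were seen. Positions are GENCODE vM21 and start regions RefSeq GRCm38.p6. The last 300 bases of transcripts were searched with blastn 2.17.0 for copies of at least 80 bases and 90% identity.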

Additional observations from a re-analysis of the deposited data

How the results depend on the processing

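The count of 7 lower members, all at least 2-fold, was 7 with RLE size factors and 6 with DESeq2. Of all tested genes, 12.1% were lower as reported, 12.2% with RLE and 10.2% with DESeq2. With library totals alone the count was 9, against 17.1% of all tested genes. Of the 9, 7 were at least 2-fold lower, and the added Tdrd7 and Tex10 were not. The count was 17 with a minimum count of 3 and 18 with no filter, where 55 and 61 members were tested. The shares of all genes then tested were 14.2% and 13.7%. The added members had few or no UMIs in Aire-/- libraries, so these counts are descriptions. The count was 2 after thinning to the smallest library, where 19 members were tested, against 8.90% of all genes then tested. Leaving out 1 library gave 4 to 7, both for any fold and for at least 2-fold, with the lowest count without Aire-/- library 748. The share of all tested genes then ran from 9.32% to 13.5%, and was 9.98% without library 748. Without libraries 746 and 753 together, an alternative chosen after seeing the data, the count was 5, against 9.48% of all tested genes. Spata19 (edgeR adjusted p = 0.144) and Spaca9 (0.0716) were then lost. No member was higher under any of these alternatives. The count of 11 lower genes of the germ cell list was 21 with either looser filter and 5 after thinning, and 10 to 11 with 1 library left out. These counts stand against the same shares of all tested genes.

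The summed CPM of all members differed by -125.7 CPM (Aire-/- minus Aire+/+), -240.9 CPM with library totals alone and -163 to -103 CPM with 1 library left out. Library totals shift the median log2 fold change of all tested genes from -0.02 to -0.22. The sign changed under some alternative in 15 tested members, none of which passed under any, and 5 of them had been named by the rule. With library totals it became -0.143 for Tex264, -0.0058 for Maged1 and -0.0077 for Spata6, which was -0.0220 after thinning. Without libraries 746 and 753 Tex264 was at -0.148. With 1 library left out, Tex264 ran from -0.123 to 0.144, Maged2 from -0.0912 to 0.0341 and Catsper2 from -0.372 to 0.0653. The cause was not tested, beyond the fewer members tested under thinning. No paired analysis was possible because the library numbers differ between the genotypes. Low UMI counts in Aire-/- libraries limit what can be tested: 24 of 61 members were below the filter.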
